A study of Mus musculus with 18 samples.

Results

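Cytokines that signal through JAK kinases and STAT transcription factors leave a trace in the transcripts of the pathway itself, because activated STATs switch on genes of the SOCS family, whose proteins then damp the same receptors. The genes described here are 9 members of that circuit: the suppressors Socs1, Socs2, Socs3 and Cish, the transcription factors Stat3, Stat4, Stat5a and Stat6, and the kinase Jak2. They were chosen as the rows of the deposited count table whose Ensembl identifiers map to these symbols, and all 9 were found among the 54232 genes of the table and among the 17074 genes tested. Their levels were read in intestinal dendritic cells (DCs), the antigen-presenting cells that carry material from the gut wall to the draining lymph nodes and in which JAK-STAT cytokines set maturation and the signals given to T cells.

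The data were 18 bulk RNA-seq libraries of C57BL/6J mice, all labelled CD11a KO. Itgal encodes CD11a, an integrin chain that pairs with CD18 to form LFA-1. Each of the 6 groups held 3 libraries, and the groups were CD11b+, CD103+ and double-positive DCs (carrying CD11b and CD103) of small intestinal lamina propria, and the same subsets of the intestinal lymph node. No wild-type library was analysed here, so the values compare tissues and subsets and say nothing of the genotype. The labels describe steady-state and Salmonella-infected mice without saying which these were, give no age, and do not say whether the 3 libraries of a group came from separate animals or from pools, so p-values measure the spread between libraries, which may be technical.

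Library totals ran from 23574292 to 46901985 counts. Itgal was read in all groups, with group means between 8.66 and 24.3 CPM (counts scaled to a common library size). The genes of the sorting markers followed the subset labels within the lamina propria: Itgam (CD11b) averaged 61.3, 0.902 and 68.5 CPM in CD11b+, CD103+ and double-positive DCs, and Itgae (CD103) averaged 169, 1337 and 812 CPM. In the lymph node Itgae was much lower, at 5.97, 35.4 and 46.1 CPM in the same order, while Ccr7, the chemokine receptor of migratory DCs, averaged 1572, 11340 and 9025 CPM against 43.4, 147 and 157 CPM in lamina propria. The tissues also differed in sex-linked genes. All 9 lamina propria libraries had the Y-linked Ddx3y at 50.04 to 74.4 CPM and Xist at no more than 0.286 CPM, whereas Xist was at 15.4 to 89.1 CPM in the 9 lymph node libraries, and replicate 3 of the lymph node CD11b+ and double-positive groups carried both genes. Tissue and sex of the donors therefore cannot be told apart in these data. The 12 T cell marker genes summed to 6.42 to 37.2 CPM in lamina propria libraries and to 328 to 725 CPM in lymph node libraries, with none of the 12 at 0 in a whole group, and all 12 were higher in lymph node in each subset by edgeR's quasi-likelihood test. The 8 B cell genes summed to 11.7 to 51.3 CPM in lamina propria and 39.0 to 231 CPM in lymph node libraries, the 8 NK cell genes to 85.9 to 237 and 156 to 527 CPM, and the 7 epithelial genes to 55.2 to 822 and 24.6 to 65.3 CPM. Pax5 was at 0 in lamina propria double-positive DCs, Klra8 in all 3 lamina propria groups and Eomes in 2 of them. The part of other cells' RNA in the results below was not tested. In bulk libraries fewer cells of a type and less RNA per cell cannot be told apart.

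Levels of single genes are given as CPM on library sizes normalized by TMM. Differences are log2 fold changes with their standard errors (SE) from edgeR's quasi-likelihood fit of all 6 groups, and a gene was called when its adjusted p (Benjamini-Hochberg over all genes tested) was under 0.01 and its fold change over 2.

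Between lymph node and lamina propria, the suppressor genes split. Socs1, Socs2 and Cish were higher in lymph node in each of the 3 subsets, Socs3 was lower in CD11b+ and double-positive DCs, and the STAT and Jak2 transcripts were higher in lymph node mainly in the subsets that carry CD103. In CD11b+ DCs 4 of the 9 genes were called, 3 higher and 1 lower in lymph node, where 15.2% of all genes tested were called (10.3% higher, 4.93% lower). In CD103+ DCs 7 were called, all of them higher, against 35.0% of all genes (19.8% higher, 15.1% lower). In double-positive DCs all 9 were called, 8 higher and 1 lower, against 32.1% (18.6% higher, 13.6% lower). For the mean of the 3 tissue effects 8 were called, 7 higher and 1 lower, against 32.7% (19.7% higher, 13.0% lower). Stat6 was the gene not called, and Stat5a, at 1.06 ± 0.09 on the log2 scale, came to 0.97 under total counts or without replicate 3 of the lymph node CD11b+ DCs. The median log2 fold change of the 9 genes was 0.60, 1.52 and 1.61 in CD11b+, CD103+ and double-positive DCs, beside medians over all genes tested of 0.03, 0.04 and 0.07. The libraries of the tissues did not overlap in 26 of the 27 pairs of gene and subset, 24 of them higher and 2 lower in lymph node, where 50.8%, 65.6% and 66.9% of all genes did not overlap in CD11b+, CD103+ and double-positive DCs. The exception was Stat6 in CD11b+ DCs.

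**Figure D1:**
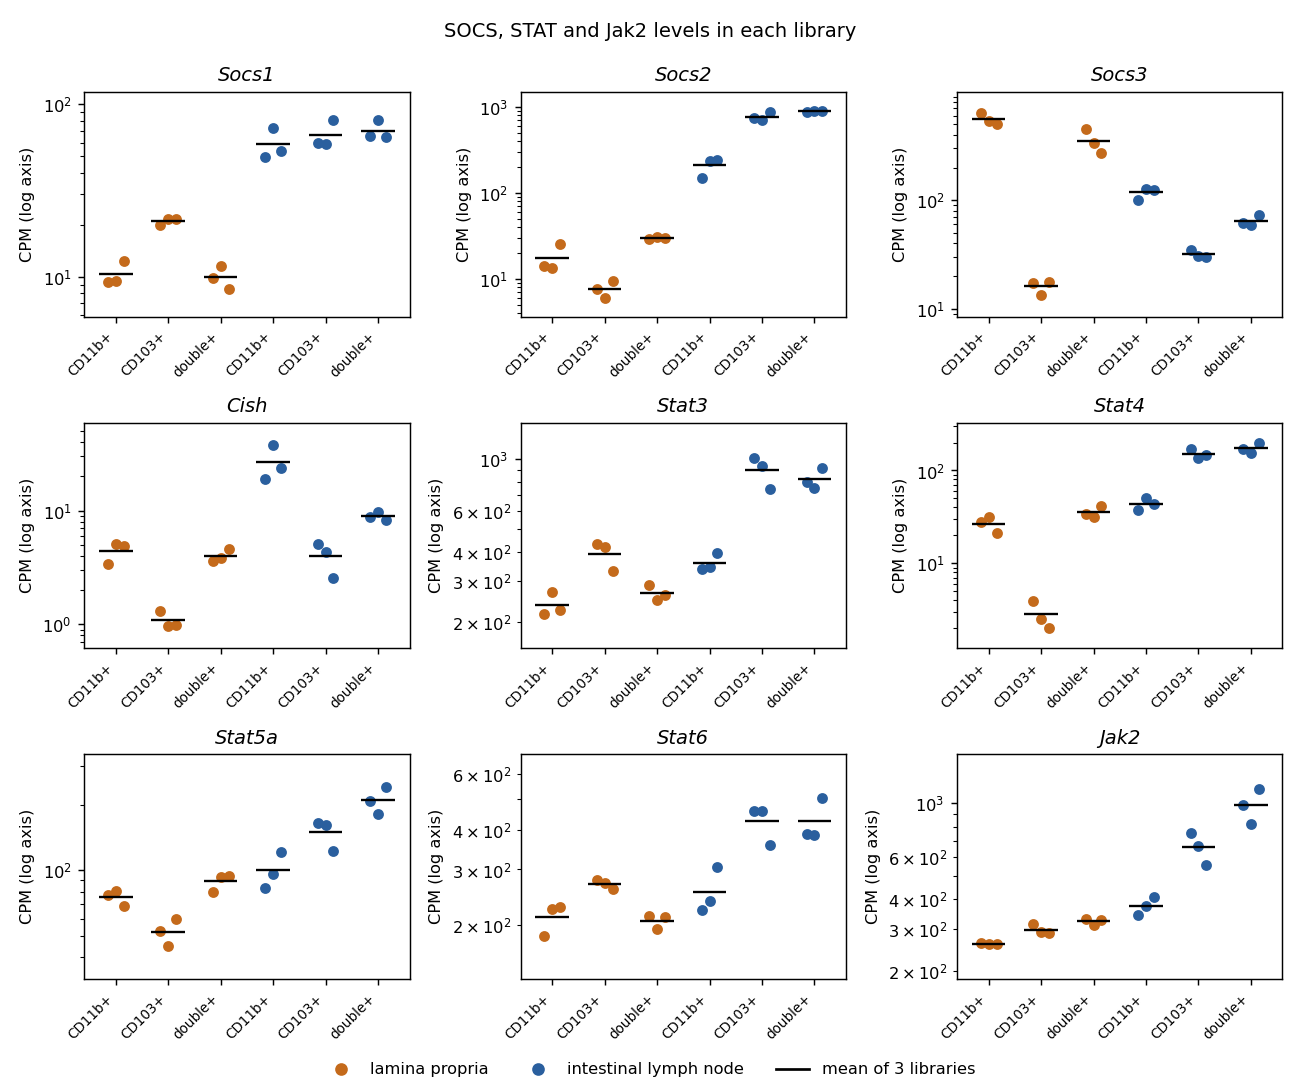
Level of each of the 9 genes in every library, in CPM on a log axis, for the 3 DC subsets of lamina propria (orange) and intestinal lymph node (blue), with a bar at the mean of 3 libraries. Socs2 spans 6.06 to 891 CPM with every lymph node library above every lamina propria library, whereas Socs3 is highest in the CD11b+ and double-positive libraries of lamina propria and lowest in those of CD103+ DCs.

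Socs2 (ENSMUSG00000020027, chromosome 10 from 95385362 to 95417180 of GRCm38, minus strand) encodes a suppressor best known for restraining growth hormone signalling and is itself switched on by STAT5. It had the widest range of the 9 genes, with a mean in the highest group 115.5 times that of the lowest. Its levels in lamina propria were 14.0, 13.5 and 25.6 CPM in CD11b+ DCs, 7.57, 6.06 and 9.34 CPM in CD103+ DCs and 28.8, 30.8 and 30.1 CPM in double-positive DCs. In the lymph node they were 150.45, 236 and 238 CPM in CD11b+ DCs, 733, 707 and 862 CPM in CD103+ DCs and 875, 887 and 891 CPM in double-positive DCs. No library of one tissue came near the other, and even the lowest lymph node library was above the highest lamina propria library. The log2 fold change was 3.55 ± 0.23 (SE, n = 3 libraries a group), 6.66 ± 0.27 and 4.89 ± 0.25 in CD11b+, CD103+ and double-positive DCs, with edgeR adjusted p of 8.26e-09, 2.70e-12 and 5.17e-11. The order of the subsets was not the same in the tissues. CD103+ DCs were the lowest in lamina propria and far above CD11b+ DCs in lymph node, and no neighbouring groups in the order of Socs2 means overlapped.

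Socs1 (ENSMUSG00000038037, chromosome 16 from 10782240 to 10785536, minus strand), the suppressor that acts on the JAK kinases below interferon and common gamma chain cytokine receptors, was at 9.37, 9.41 and 12.3 CPM in lamina propria CD11b+ DCs, 19.9, 21.7 and 21.7 CPM in CD103+ DCs and 9.87, 11.5 and 8.53 CPM in double-positive DCs. In lymph node it was at 49.3, 73.2 and 53.8 CPM in CD11b+, 59.3, 58.6 and 81.0 CPM in CD103+ and 65.7, 80.8 and 64.6 CPM in double-positive DCs. The CD103+ libraries stood above the other lamina propria libraries, and the 3 lymph node groups overlapped each other. Socs1 was higher in lymph node by 2.50 ± 0.18, 1.65 ± 0.17 and 2.82 ± 0.18 in CD11b+, CD103+ and double-positive DCs on the log2 scale (edgeR adjusted p 2.16e-08, 2.85e-07 and 9.83e-10). It had the most even level across lymph node subsets of the 4 suppressors, at 58.8 ± 12.7, 66.3 ± 12.7 and 70.4 ± 9.08 CPM (SD, n = 3).

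Cish (ENSMUSG00000032578, chromosome 9 from 107296026 to 107302784, plus strand) encodes CIS, a suppressor induced by STAT5 downstream of receptors for interleukin-2 and GM-CSF. It was the least abundant of the 9 genes, at 3.41, 5.09 and 4.86 CPM in lamina propria CD11b+ DCs, 1.31, 0.968 and 0.979 CPM in CD103+ DCs and 3.61, 3.80 and 4.60 CPM in double-positive DCs. In lymph node it was at 18.9, 37.7 and 23.5 CPM in CD11b+, 5.06, 4.30 and 2.54 CPM in CD103+ and 8.79, 9.81 and 8.27 CPM in double-positive DCs. Lymph node libraries were above lamina propria libraries within each subset, but CD103+ DCs of the lymph node overlapped the other lamina propria subsets. The log2 fold change was 2.58 ± 0.28, 1.87 ± 0.30 and 1.16 ± 0.28 in CD11b+, CD103+ and double-positive DCs (edgeR adjusted p 2.37e-06, 3.41e-05 and 0.00161). With total counts in place of TMM the last of these was 0.99 and was no longer called. Counts in the lowest library were 24, so low levels of Cish carry more counting error than those of the other genes.

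NK cells and T cells express Cish too, and the NK cell markers Ncr1 and Klrb1c, named after their values were seen, had the same order as Cish among the lymph node subsets. In CD11b+, CD103+ and double-positive DCs of the lymph node, Cish averaged 26.7, 3.97 and 8.96 CPM, Ncr1, which encodes the NK receptor NKp46, averaged 88.7, 2.56 and 15.0 CPM, and Klrb1c (NK1.1) averaged 53.7, 1.21 and 10.7 CPM. Gzma, which encodes granzyme A, had another order, at 15.2, 57.5 and 17.8 CPM. The 8 NK cell genes together summed to 353 to 527, 156 to 246 and 167 to 192 CPM, so CD103+ and double-positive DCs overlapped. The Cish order was not particular to NK cell markers. B cell genes summed to 163 to 231, 39.0 to 49.2 and 54.9 to 65.9 CPM in these groups, and macrophage genes to 288 to 494, 11.1 to 14.8 and 77.0 to 83.3 CPM. T cell sums overlapped between the subsets, and epithelial sums were highest in double-positive DCs. The NK cell genes were also tested one by one. Of the 7 tested, 3 were lower in CD103+ than in CD11b+ DCs of the lymph node, where 15.6% of all genes were called lower, and 3 were lower in double-positive than in CD11b+ DCs, where 9.82% were. The part of RNA of NK cells, B cells or macrophages in the Cish differences was not tested.

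Socs3 (ENSMUSG00000053113, chromosome 11 from 117966079 to 117970047, minus strand), the suppressor that binds the gp130 chain of the IL-6 receptor and is a classical target of STAT3, ran the other way. Its levels in lamina propria were 631, 534 and 507 CPM in CD11b+ DCs and 451, 337 and 271 CPM in double-positive DCs, but 17.2, 13.3 and 17.7 CPM in CD103+ DCs. In lymph node they were 101, 127 and 125 CPM in CD11b+, 61.4, 59.0 and 72.4 CPM in double-positive and 35.0, 30.4 and 29.9 CPM in CD103+ DCs. The 6 group means thus fell in an order in which no neighbouring groups overlapped, from lamina propria CD11b+ DCs to lamina propria CD103+ DCs, 34.6-fold apart. Socs3 fell by 2.24 ± 0.17 on the log2 scale in CD11b+ DCs and by 2.46 ± 0.17 in double-positive DCs from lamina propria to lymph node (edgeR adjusted p 3.50e-08 and 2.46e-09). In CD103+ DCs the log2 fold change had the opposite sign, 0.99 ± 0.17 (adjusted p 8.35e-05), and at 1.98-fold stayed just under the limit on fold change. It passed that limit with the size factors of DESeq2 in the edgeR fit (1.03), with the DESeq2 test (1.02), and without replicate 1 or 3 of the lamina propria (1.04 each) or replicate 3 of the lymph node CD103+ DCs (1.01).

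Macrophage marker genes and Socs3 had the same order of subsets within each tissue. The 8 genes summed to 657 to 1460 CPM in lamina propria CD11b+ DCs, 308 to 353 CPM in double-positive and 41.8 to 54.7 CPM in CD103+ DCs, and to 288 to 494, 77.0 to 83.3 and 11.1 to 14.8 CPM in the lymph node groups in the same order. Fcgr1, which encodes CD64, the macrophage marker that the described DC gate leaves out, was at 0 in lymph node CD103+ DCs only. The sum of the 8 genes was lower in lymph node in all 3 subsets. Socs3 was lower in lymph node in CD11b+ and double-positive DCs and higher in CD103+ DCs. The sums of lamina propria double-positive and lymph node CD11b+ DCs overlapped, and Socs3 averaged 353 and 118 CPM in these groups. In CD11b+ DCs 4 of the 8 were called lower in lymph node and 0 higher, with a median log2 fold change of -1.55. Of all genes, 4.93% were called lower and 10.3% higher in that comparison. Among the markers not called there, the mean of Adgre1, which encodes F4/80, went from 95.4 CPM in lamina propria to 169 CPM in lymph node. That of the chemokine receptor gene Cx3cr1 went from 44.3 to 57.9 CPM. Over the mean tissue effect 6 of the 8 were called lower and 1 higher in lymph node, where 13.0% of all genes were called lower and 19.7% higher. Their part in the Socs3 difference was not tested.

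The STAT5-type response element, TTCNNNGAA (the same letters on both strands), was looked for in the 300 bases around RefSeq start sites of GRCm38.p6, 250 before and 50 after each start, for which 8 of the 9 genes had at least 1 entry (10 windows). Socs2 had no entry and was not searched. The element was in 2 of the 10 windows, those of Socs3 and Cish (2 of the 8 genes), and in 8.30% of all 32851 windows. The same letters with 4 bases between TTC and GAA, the spacing preferred by STAT6, were in none of the 10 windows and in 6.95% of all windows. The sequences of these suppressors are shown because they held the matches, which capitals mark.
Cish, chr9:107296654-107296683, plus strand: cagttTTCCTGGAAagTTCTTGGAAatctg
Socs3, chr11:117969367-117969616, minus strand: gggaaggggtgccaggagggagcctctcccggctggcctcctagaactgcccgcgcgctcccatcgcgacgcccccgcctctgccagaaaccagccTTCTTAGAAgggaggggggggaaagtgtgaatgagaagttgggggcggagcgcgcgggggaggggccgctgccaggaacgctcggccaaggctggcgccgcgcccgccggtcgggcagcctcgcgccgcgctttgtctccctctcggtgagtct
In Cish the matches lie side by side from the 1st and the 12th base of the RefSeq transcript, and in Socs3 the match begins 154 bases before the RefSeq start. Both RefSeq starts, and the matches, lie inside the gene spans given above, which follow another annotation. A match is a description of letters and was not tied to binding of any factor in these cells.

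Among the transcription factors, Stat4 stood apart. Stat4 (ENSMUSG00000062939, chromosome 1 from 51987148 to 52107189, plus strand) encodes the STAT activated by IL-12 and IL-23. In lamina propria it was at 27.8, 31.3 and 21.0 CPM in CD11b+ DCs and at 33.6, 31.2 and 41.7 CPM in double-positive DCs, but at 3.96, 2.50 and 2.00 CPM in CD103+ DCs. In lymph node it was at 37.8, 49.96 and 43.8 CPM in CD11b+, 169, 137 and 148 CPM in CD103+ and 170.1, 155 and 198 CPM in double-positive DCs. CD103+ DCs were therefore the lowest group in one tissue and overlapped the highest group in the other. The log2 fold change between the tissues was 5.75 ± 0.23 in CD103+ DCs (edgeR adjusted p 2.41e-12) and 2.30 ± 0.19 in double-positive DCs (adjusted p 2.00e-08). In CD11b+ DCs it was 0.72 ± 0.18 (adjusted p 0.00537), a 1.64-fold difference under the limit on fold change. T cells also express Stat4, and T cell marker genes were high in all 3 lymph node groups, at 328 to 618 CPM in CD11b+, 427 to 725 CPM in CD103+ and 343 to 564 CPM in double-positive DCs. Their part in the Stat4 differences was not tested.

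**Figure D2:**
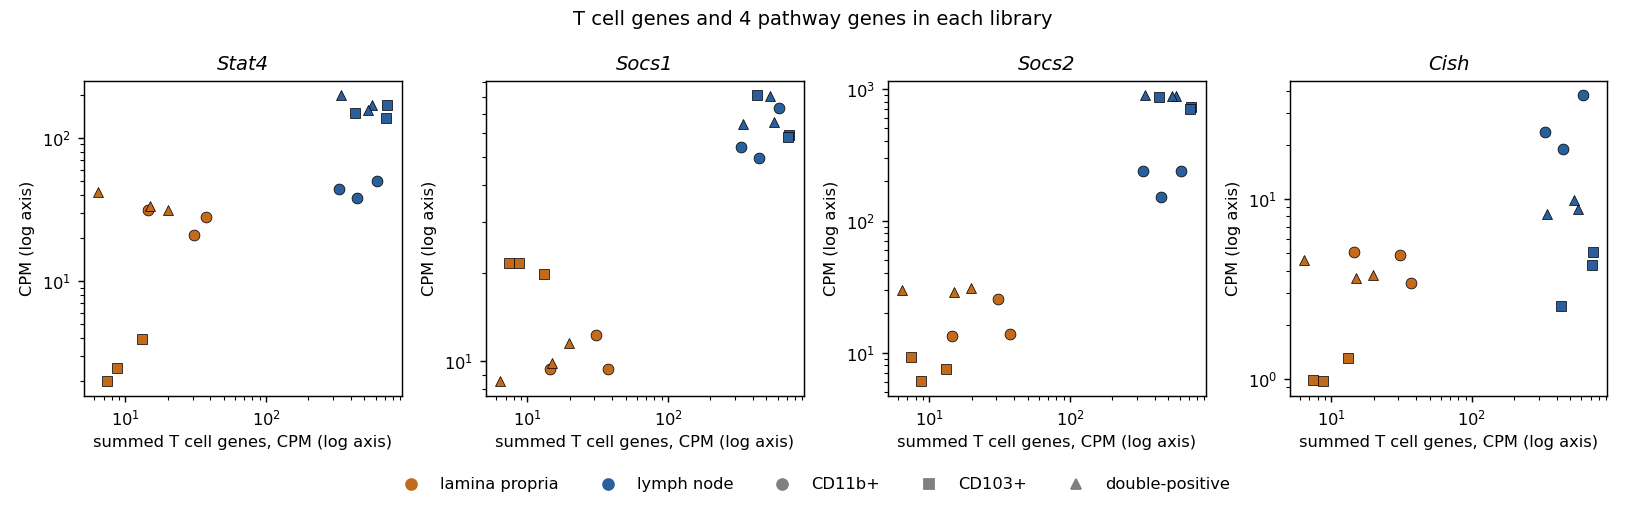
Levels of Stat4, Socs1, Socs2 and Cish in each library against the summed level of 12 T cell marker genes in the same library, both in CPM on log axes, with tissue by colour and subset by marker shape. The lymph node libraries lie between 328 and 725 CPM of T cell genes and the lamina propria libraries between 6.42 and 37.2 CPM, so that the tissues stand apart along this axis; the part of T cell RNA in the 4 levels was not tested.

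Stat3 (ENSMUSG00000004040, chromosome 11 from 100885098 to 100939540, minus strand), activated by IL-6 and IL-10 family cytokines, and Jak2 (ENSMUSG00000024789, chromosome 19 from 29251828 to 29313080, plus strand), the kinase of the GM-CSF, interferon gamma and IL-12 receptors, showed the same order of effects. Stat3 ranged from 217 to 430.4 CPM over lamina propria libraries, and in lymph node from 338 to 396 CPM in CD11b+, from 748 to 1015 CPM in CD103+ and from 748 to 917 CPM in double-positive DCs. Jak2 ranged from 259 to 330.2 CPM over lamina propria libraries, and in lymph node from 342 to 407 CPM, from 551 to 753 CPM and from 821 to 1143 CPM in the same order. Lymph node CD103+ and double-positive libraries were above every other library for both genes. The Stat3 log2 fold change was 0.60 ± 0.13, 1.19 ± 0.13 and 1.62 ± 0.13 in CD11b+, CD103+ and double-positive DCs (edgeR adjusted p 0.00145, 5.37e-07 and 1.79e-08), and the first was not over 2-fold. The Jak2 log2 fold change was 0.53 ± 0.12, 1.14 ± 0.12 and 1.61 ± 0.12 (adjusted p 0.00182, 2.48e-07 and 5.41e-09), again with the first under the limit. Under total counts the values in CD103+ DCs were 0.97 for Stat3 and 0.92 for Jak2, which ended both calls.

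Stat5a (ENSMUSG00000004043, chromosome 11 from 100859351 to 100885169, plus strand), the mediator of GM-CSF and IL-2 family signals that lies next to Stat3, was at 44.8 to 94.0 CPM over lamina propria libraries. In lymph node it was at 83.3 to 122 CPM in CD11b+, 123 to 166 CPM in CD103+ and 181 to 241 CPM in double-positive DCs. It was higher in lymph node by 1.52 ± 0.16 in CD103+ and 1.23 ± 0.15 in double-positive DCs on the log2 scale (edgeR adjusted p 2.29e-07 and 2.72e-06), and 0.42 ± 0.15 in CD11b+ DCs was not called (adjusted p 0.0394). Stat6 (ENSMUSG00000002147, chromosome 10 from 127642986 to 127660957, plus strand), the STAT of IL-4 and IL-13, was the most even of the 9 genes, with only 2.07-fold between its highest and lowest group means. It was at 185 to 278 CPM over lamina propria libraries and, in lymph node, at 224 to 305 CPM in CD11b+, 359 to 459.6 CPM in CD103+ and 386 to 506 CPM in double-positive DCs. Its log2 fold change was 0.26 ± 0.13 in CD11b+ (adjusted p 0.134), 0.66 ± 0.13 in CD103+ (adjusted p 0.000417) and 1.05 ± 0.14 in double-positive DCs (adjusted p 4.20e-06), of which only the last was called. That call was lost under total counts (0.87), without replicate 3 of the lymph node double-positive DCs (0.89) and without both libraries that carried Xist and Ddx3y (0.91). Stat3 and Stat5a share 72 exonic bases on opposite strands, Stat6 shares 40 with Nab2, and Stat4 shares 1033 on the same strand with Gm28177, which had 134 counts over all libraries.

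**Figure D3:**
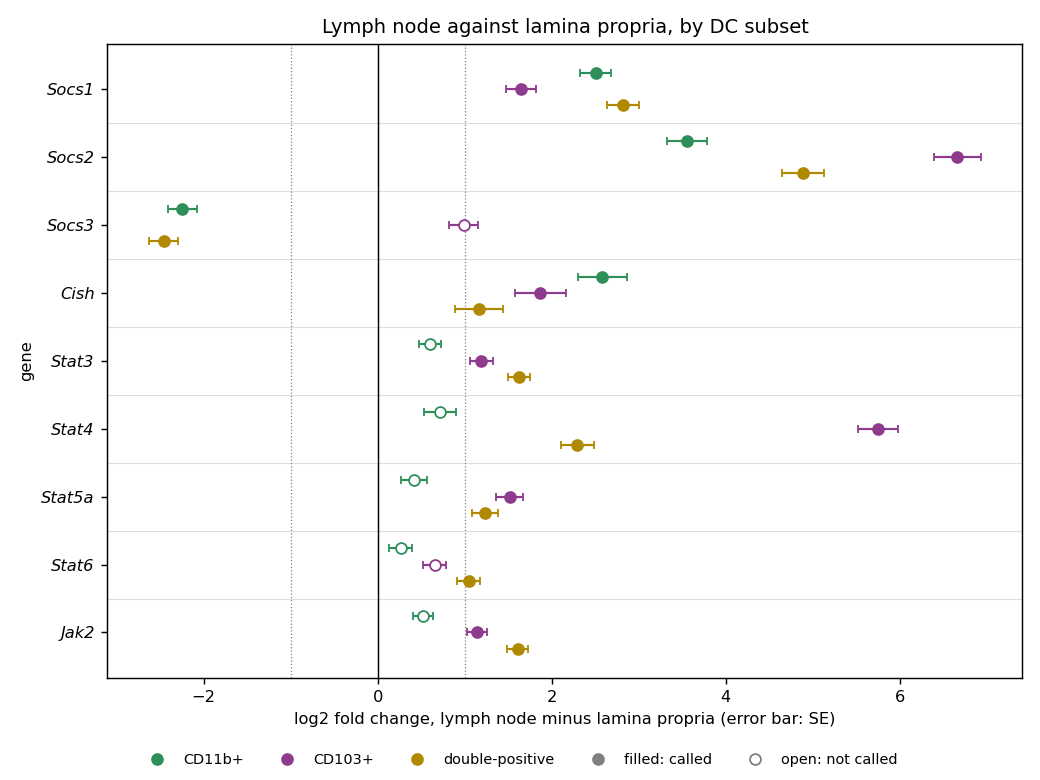
Log2 fold change of each gene between lymph node and lamina propria in CD11b+, CD103+ and double-positive DCs, with the SE as error bar, filled where called and open where not; dotted lines mark 2-fold. Socs3 is the only gene to the left of 0, in CD11b+ and double-positive DCs, and Socs2 and Stat4 in CD103+ DCs lie farthest to the right, at 6.66 and 5.75.

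Whether the tissue effect differed between the subsets was tested directly, with an F test over the 3 tissue effects in the same edgeR fit. It passed an adjusted p of 0.01 for 8 of the 9 genes, where 31.5% of all genes passed. The smallest adjusted p were those of Stat4 (4.32e-09) and Socs3 (1.36e-08), followed by Socs2 (2.52e-06), Jak2 (0.000175), Stat3 (0.000848), Stat5a (0.00129), Socs1 (0.00203) and Stat6 (0.00931). Cish did not pass (0.0194). For Socs2, Stat4 and Stat5a the estimated difference was widest in CD103+ DCs, for Socs1, Stat3, Stat6 and Jak2 in double-positive DCs. Socs3 was the gene with estimates of opposite sign. Under total counts Stat5a (0.0208) and Stat6 (0.0586) no longer passed and Cish did (0.0051). Over all alternatives the adjusted p ranged from 0.0007 to 0.0586 for Stat6, which was lost in 15 of the 18 fits that left out a library, and from 0.0051 to 0.0554 for Cish, which passed without replicate 1 of the lymph node CD11b+ DCs (0.00817), without replicate 3 of the lymph node CD103+ DCs (0.00912) and with DESeq2 (0.00587).

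Within the lamina propria, CD103+ DCs differed from both subsets that carry CD11b in the suppressors and in Stat4. Against CD11b+ DCs 5 of the 9 genes were called, 1 higher and 4 lower in CD103+ DCs, where 15.7% of all genes were called (5.07% higher, 10.6% lower). Socs3 was 34.8-fold lower (log2 fold change -5.12 ± 0.19, edgeR adjusted p 6.18e-12) and Stat4 9.47-fold lower (-3.24 ± 0.22, adjusted p 4.83e-09). Cish was also lower (-2.04 ± 0.29, adjusted p 3.30e-05), as was Socs2 (-1.23 ± 0.23, adjusted p 0.00045), although without replicate 3 of the CD11b+ DCs, whose Socs2 was highest, the latter came to -0.859 and was not called. The Socs2 call was also lost when only the libraries compared were fitted (-1.22, edgeR adjusted p 0.0135). Socs1 was the gene higher in CD103+ DCs (1.03 ± 0.17, adjusted p 0.000159), a call that rested on a narrow margin: it was at 0.95 under total counts and at 0.96 without either replicate 1 or replicate 2 of the CD11b+ DCs, under the limit in each.

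Double-positive against CD103+ DCs of the lamina propria gave 5 called genes, 4 higher and 1 lower in double-positive DCs, where 13.6% of all genes were called (8.10% higher, 5.52% lower). Socs3 was higher by 4.46 ± 0.19, Stat4 by 3.66 ± 0.22, Socs2 by 1.98 ± 0.23 and Cish by 1.88 ± 0.29 on the log2 scale, with edgeR adjusted p between 2.32e-11 and 7.88e-05, and Socs1 was lower (-1.08 ± 0.17, adjusted p 0.000103), or -0.98 and not called without replicate 3 of the double-positive DCs. The comparisons share the CD103+ libraries. Between double-positive and CD11b+ DCs none of the 9 genes was called by edgeR or by DESeq2, where 4.81% of all genes were called by edgeR (1.14% higher, 3.67% lower), although 4 of them had an unadjusted edgeR p under 0.05. Those were Socs2 (0.75, 95% interval 0.29 to 1.22), Socs3 (-0.66, -0.997 to -0.32), Stat4 (0.41, 0.02 to 0.80) and Jak2 (0.31, 0.07 to 0.56). Without replicate 3 of the CD11b+ DCs Socs2 was at 1.12 and was called.

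Within the lymph node the order of the subsets was another one. CD103+ and double-positive DCs were at most 1.15-fold apart in the fitted levels of Socs2, Stat3, Stat4 and Stat6, and the libraries of both stood above those of CD11b+ DCs for these 4 genes. Against CD11b+ DCs, CD103+ DCs had 5 of the 9 genes called, 3 higher and 2 lower, where 25.9% of all genes were called (10.2% higher, 15.6% lower). Socs2 (1.88 ± 0.21, edgeR adjusted p 1.28e-06), Stat4 (1.79 ± 0.19, adjusted p 4.25e-07) and Stat3 (1.32 ± 0.13, adjusted p 2.48e-07) were higher on the log2 scale. Cish (-2.75 ± 0.29, adjusted p 4.64e-07) and Socs3 (-1.89 ± 0.17, adjusted p 7.19e-08) were lower. Double-positive against CD11b+ DCs gave 6 called genes, 5 higher and 1 lower, where 16.7% of all genes were called (6.92% higher, 9.82% lower). Socs2 (2.09 ± 0.22), Stat4 (1.99 ± 0.19), Jak2 (1.40 ± 0.12), Stat3 (1.19 ± 0.13) and Stat5a (1.06 ± 0.15) were higher and Cish was lower (-1.58 ± 0.27), with edgeR adjusted p of at most 0.00017. Under total counts, which shifted the median of all genes from -0.13 to -0.56 in the first of these comparisons and from -0.08 to -0.44 in the second, Stat3 in both (0.90 and 0.82) and Stat5a (0.70) were under the limit and Socs3 in the second (-1.24) passed it. The Stat5a call was also lost without replicate 1 of the CD11b+ DCs (0.91) and without replicate 3 of the double-positive DCs (0.93). The share of called genes that were higher went from 39.6% to 19.5% and from 41.3% to 19.3% under that scaling.

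Double-positive and CD103+ DCs of the lymph node differed in 2 of the 9 genes, where 6.53% of all genes were called (4.69% higher, 1.84% lower). Cish was higher in double-positive DCs by 1.17 ± 0.28 (edgeR adjusted p 0.00479) and Socs3 by 1.02 ± 0.17 (adjusted p 0.000243) on the log2 scale. Both calls were near the limits. Only Cish was called with the size factors of DESeq2 or its test, only Socs3 without replicate 1 or replicate 2 of the double-positive DCs, and neither without replicate 3 of the double-positive or replicate 2 or 3 of the CD103+ DCs. Jak2 was higher by 0.58 ± 0.12 (adjusted p 0.00132) and Stat5a by 0.48 ± 0.15 (adjusted p 0.027), both under 2-fold. The 95% interval of the difference was -0.23 to 0.64 for Socs2, -0.17 to 0.58 for Stat4, -0.41 to 0.14 for Stat3, -0.28 to 0.28 for Stat6 and -0.26 to 0.44 for Socs1.

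**Figure D4:**
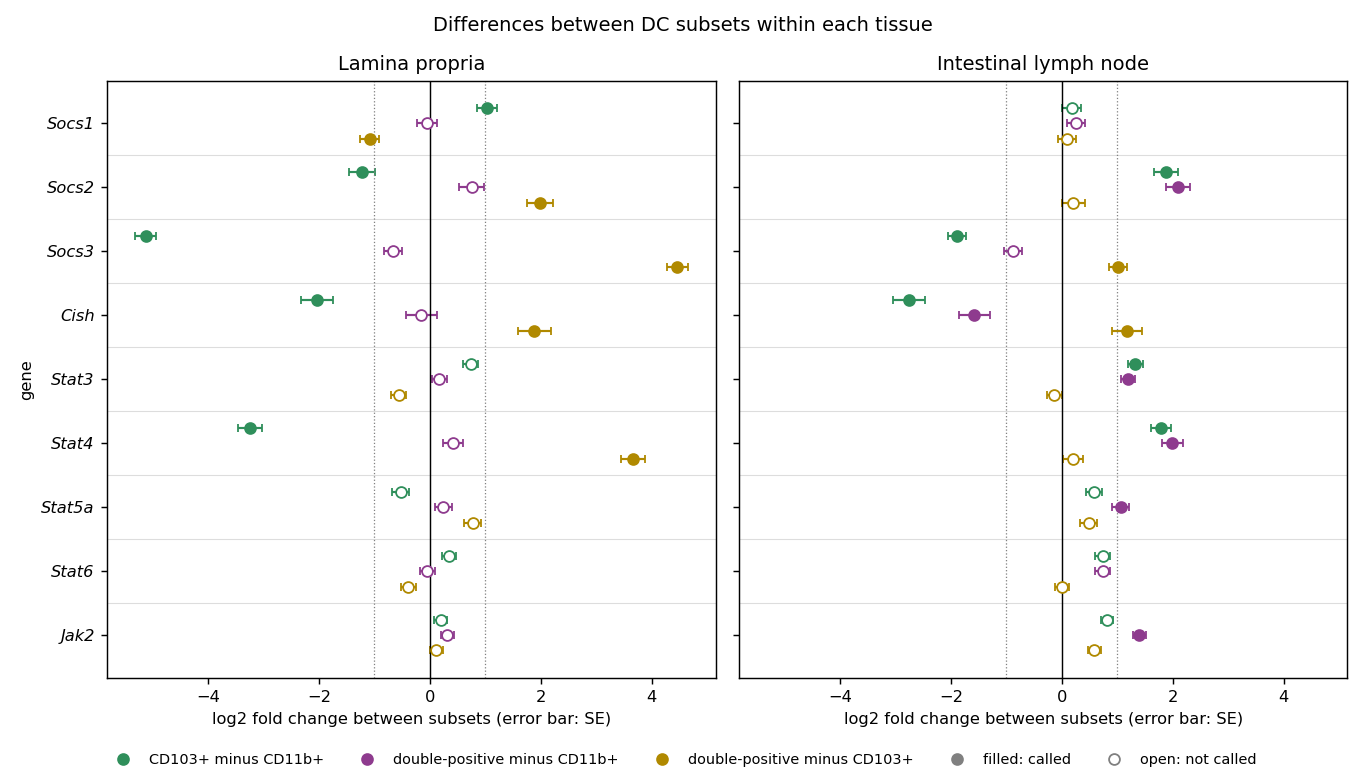
Log2 fold changes between DC subsets within lamina propria (left) and within intestinal lymph node (right) for the 9 genes, with the SE as error bar, filled where called and open where not; dotted lines mark 2-fold. In lamina propria Socs3 and Stat4 lie farthest from 0 in both comparisons with CD103+ DCs, whereas in lymph node Socs2, Stat3 and Stat4 are higher and Cish is lower in both subsets than in CD11b+ DCs.

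To compare the genes with each other, levels were also expressed per kilobase of exon (FPKM). In lamina propria CD11b+ DCs the most abundant of the 9 was Socs3 at 193 ± 22.5 FPKM, followed by Jak2 at 51.6 ± 0.18 and Stat6 at 48.4 ± 5.51 FPKM (SD, n = 3). In lamina propria CD103+ DCs Socs3 was 6th, at 5.57 ± 0.84 FPKM, behind Stat6 at 61.4 ± 2.04, Jak2 at 59.2 ± 2.80 and Stat3 at 41.3 ± 5.68 FPKM. In lymph node double-positive DCs Jak2 led at 195 FPKM, and Socs2 was 3rd at 92.8 ± 0.86 FPKM, close to Stat6 at 96.9 ± 15.5 and Stat3 at 86.1 ± 9.11 FPKM. The most abundant suppressor was thus Socs3 in CD11b+ DCs of both tissues and in lamina propria double-positive DCs, Socs1 in lamina propria CD103+ DCs and Socs2 in lymph node CD103+ and double-positive DCs. Cish was the lowest of the 9 genes in all 6 groups, between 0.17 and 4.16 FPKM. All exons of a gene were counted in its length, so that FPKM understates a gene, such as Socs2 with 9531 bases of exon, whose main transcript is shorter. In lymph node CD11b+ DCs the order of Socs3 (40.7 FPKM) and Socs2 (21.9 FPKM) turned on that length, since Socs2 was the higher in CPM, at 208 against 118.

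Levels of the genes moved together across the 18 libraries to different degrees. On log2 CPM, Stat3 and Stat6 correlated at Pearson r = 0.97, Stat5a at 0.92 with both Socs2 and Jak2, and Stat4 at 0.91 with Stat5a. Socs3 had its most negative values with Stat3 (-0.66) and Stat6 (-0.62). The libraries share groups and tissues, so these values mostly restate the group means and are given as a description. By the same measure the genes most like the members were Mreg (0.997), Tmem200b (0.995) and Tmem123 (0.99) for Socs2, Tbc1d4 (0.976), Cdc42ep3 (0.971) and Apobec3 (0.968) for Socs1, Tent5a (0.975) and Cyp4f18 (0.966) for Socs3, and Il18r1 (0.959), Cd4 (0.948) and Slc25a35 (0.943) for Cish. For the transcription factors they were Mapkap1, Atmin and Tbl1x for Stat3 (0.987 to 0.99), Hlx, Gbp4 and Tmcc3 for Stat4 (0.98 to 0.984), Dusp5, Galnt1 and Prex1 for Stat5a (0.965 to 0.97) and Itgb1, Herpud2 and Etv6 for Stat6 (0.969 to 0.971), and for Jak2 they were Gpr137b, Myo1c and Mpi (0.972 to 0.979).

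The rest of the pathway was described by lists. For the mean of the 3 tissue effects, where 32.7% of all genes were called, none of the 4 other SOCS genes (Socs4, Socs5, Socs6 and Socs7) was called by edgeR or DESeq2, none had an unadjusted edgeR p under 0.05, and their median log2 fold change was 0.05. Socs5, chosen after its values were seen, was the exception within a subset: it averaged 20.1 CPM in lamina propria CD103+ DCs and 6.93 CPM in lymph node CD103+ DCs, a log2 fold change of -1.53 (edgeR adjusted p 5.54e-06). In CD11b+ DCs its mean went the other way, from 8.06 to 11.9 CPM. The F test of the tissue effect between subsets passed for 2 of the 4 genes, where 31.5% of all genes passed, so the mean can hide opposite effects. Of the 6 other JAK and STAT genes only Jak3, the kinase of the common gamma chain receptors, was called (1.24, adjusted p 6.82e-09), with a list median of 0.86, and DESeq2 called 2 of the list.

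The receptors and ligands showed wider differences. Of 29 cytokine receptor chains tested 12 were higher and 2 lower in lymph node, with a median of 0.96, where 19.7% of all genes were called higher and 13.0% lower. The called ones with the largest differences were Il23r, Il2rb (5.49 on the log2 scale), Il2ra (5.40) and Il7r (5.07), chains of the receptors for IL-23, IL-2, IL-15 and IL-7. Il23r was close to absent in lamina propria, at 1.01, 0.02 and 0.07 CPM in CD11b+, CD103+ and double-positive DCs, and averaged 21.4 ± 5.54, 5.34 ± 0.76 and 8.19 ± 0.79 CPM in lymph node. In CD11b+, CD103+ and double-positive DCs of the lymph node Il2rb averaged 239.9 ± 75.6, 51.8 ± 18.4 and 75.6 ± 1.57 CPM, against at most 4.10 CPM in the lamina propria groups. Il2ra, the high-affinity chain, averaged 72.2 ± 22.9, 28.4 ± 2.13 and 63.2 ± 7.30 CPM against 2.87 ± 0.31, 0.71 ± 0.34 and 0.88 ± 0.30 CPM. T cells and innate lymphocytes carry these 4 chains too. The 2 lower receptor genes, named after their values were seen, were Lifr (-2.36), the receptor chain for LIF, and Ifngr1 (-1.36), the ligand-binding chain for interferon gamma. The Ifngr1 mean was not lower in CD11b+ DCs, at 654 CPM in lamina propria and 682 CPM in lymph node. It went from 1224 to 155 CPM in CD103+ and from 457 to 203.5 CPM in double-positive DCs.

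Of 16 cytokine ligands tested 14 were higher in lymph node, against 19.7% of all genes, with a median of 3.56, but the genes with the largest differences were scarce. Il21, Il12a and Ifng had at most 11 reads in any lamina propria library and passed the filter on low counts through lymph node libraries. Such genes could hardly be called lower, so the count and the median follow in part from that filter. With genes that had a group without reads set to a floor of 3 counts over that group, the median was 3.46. Il21 averaged at most 3.80 CPM and Il12a at most 0.93 CPM in any group, and neither had a read in lamina propria CD103+ DCs, so their fold changes depend on the prior count and are not given. Il7 reached 8.67 ± 2.30, 19.0 ± 5.72 and 18.9 ± 3.12 CPM in CD11b+, CD103+ and double-positive DCs of the lymph node, against 1.40, 0.08 and 1.24 CPM in lamina propria, and Ifng reached 7.29 ± 3.66, 1.90 ± 0.71 and 2.63 ± 0.14 CPM against at most 0.18 CPM. Il21 and Ifng are T and NK cell products. For the mean of the 3 tissue effects, 5 of the 7 NK cell genes tested were called higher in lymph node, against 19.7% of all genes. The part of T and NK cell RNA in the ligand differences was not tested.

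Of 9 phosphatase, PIAS and adaptor genes 2 were called, both higher in lymph node, with a median of 0.50, a share close to the 19.7% of all genes called higher. Pias3, an inhibitor of STAT3, averaged 41.9 ± 5.47, 124 ± 7.60 and 128 ± 6.05 CPM in lymph node CD11b+, CD103+ and double-positive DCs against at most 14.2 CPM in the lamina propria groups (2.68, edgeR adjusted p 1.94e-15). Ptpn2, a phosphatase that inactivates JAK1, JAK3 and STATs, was higher by 1.11. Of 10 textbook STAT targets 5 were higher and 1 lower, with a median of 1.38, where 19.7% of all genes were called higher and 13.0% lower. Ccl22, a chemokine for regulatory T cells (2.43), Bcl2l1, which encodes the survival protein BCL-XL (2.09), and Id2, a regulator needed for CD103+ DC development (1.81), were higher, and Myc was lower (-2.02).

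**Figure D5:**
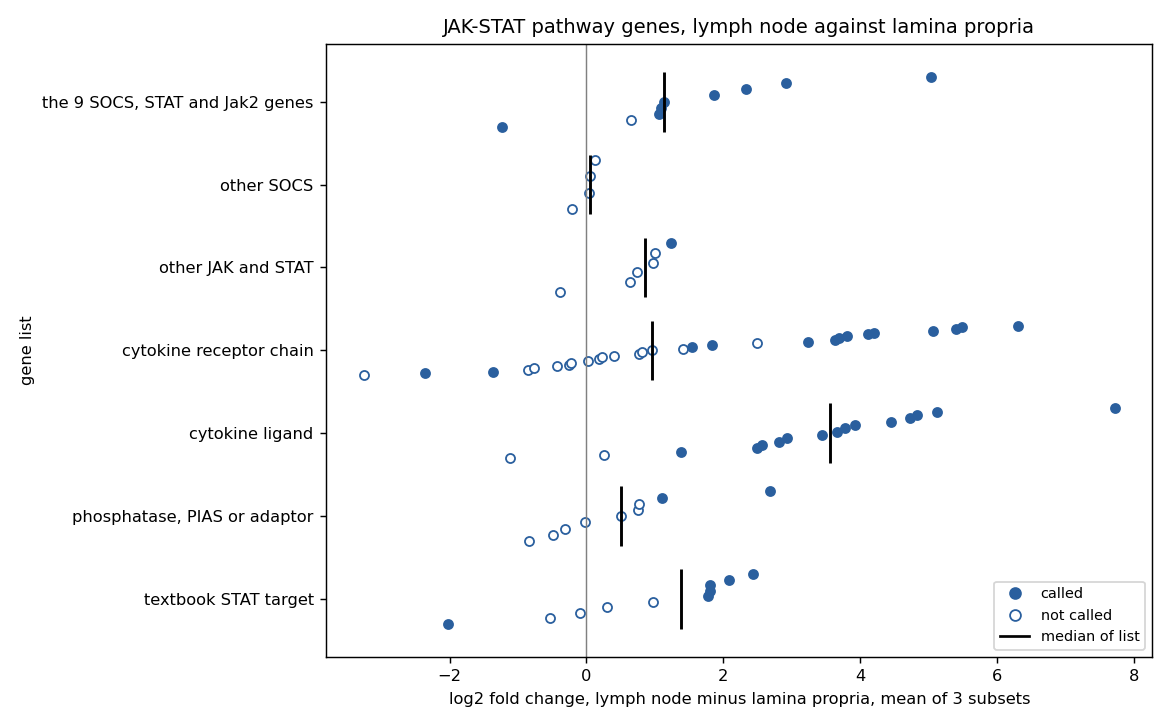
Log2 fold change between lymph node and lamina propria, as the mean of the 3 subsets, for each tested gene of the 9 members and of 6 further lists of the JAK-STAT pathway, filled where called and open where not, with a bar at each list's median. In this mean the other SOCS genes lie close to 0 (median 0.05), whereas most ligands lie to the right (median 3.56), some of them tested only through their lymph node counts.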

How the data were processed

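RNA of sorted DCs was amplified with the Smart-seq v4 kit and sequenced on a HiSeq4000 with reads of 75 bases, per the labels. The authors deposited raw read counts per gene, not normalized, and the submitters' processing notes name FastQC 0.11.7, STAR 2.6 and GRCm38. The counting tool, its strand setting and the annotation release are not given in the sources used here, so reads of overlapping genes may not be separated.

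Counts were analysed with edgeR 4.0.16 in R 4.3.3. After filterByExpr by group and TMM scaling, 17074 genes were tested by quasi-likelihood in 1 fit of the means of 6 groups with 3 libraries each. Genes were called at a Benjamini-Hochberg adjusted p under 0.01 and over 2-fold, except in the F test of the interaction, which had no limit on fold change. Each SE was derived from the F statistic. CPM used totals multiplied by TMM factors (23574292 to 46901985 counts before scaling), and FPKM the union of exons of GENCODE annotation of GRCm38. Correlations used log2 CPM with a prior count of 2. DESeq2 1.42.0, other scalings and filters, equal depth, a replicate block, subsets of libraries and each library left out were the alternatives, with 1 added after the data were seen (without the libraries that carried Xist and Ddx3y). No replicates of a group agreed within sampling noise (chi-square per gene 14.9 to 64.9), and all were counted separately. The fit was tested on simulated counts in which some genes were changed in a single group, up and down alike. That setting does not test the scaling between tissues that differ in many genes.

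The 9 genes, the gene lists and the tests were chosen with earlier results of these data known. Beside the 9 genes, the text names up to 4 called genes of each pathway list with the largest mean tissue effect, the 3 genes most correlated with each member (1 of them is not reported here), and cell type markers. The article that accompanies the series reports on other libraries.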

Additional observations from a re-analysis of the deposited data

Results flagged for a closer look

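The tissue effect differed between the 3 DC subsets for 8 of the 9 genes by the F test of edgeR's quasi-likelihood fit (31.5% of all genes passed at an adjusted p under 0.01). The adjusted p was 4.32e-09 for Stat4, 1.36e-08 for Socs3, 2.52e-06 for Socs2, 0.000175 for Jak2, 0.000848 for Stat3, 0.00129 for Stat5a, 0.00203 for Socs1 and 0.00931 for Stat6. For Stat4 the log2 fold change between lymph node and lamina propria ran from 0.72 in CD11b+ to 5.75 in CD103+ DCs, and for Socs2 from 3.55 to 6.66 in the same subsets. For Socs3 it was -2.24 in CD11b+ and -2.46 in double-positive DCs and 0.99 in CD103+ DCs, with no overlap between the libraries of the tissues in any subset. For Jak2, Stat3 and Stat6 the smallest estimate was in CD11b+ and the largest in double-positive DCs, at 0.53 and 1.61, 0.60 and 1.62, and 0.26 and 1.05. Stat5a ran from 0.42 in CD11b+ to 1.52 in CD103+ DCs, and Socs1 from 1.65 in CD103+ to 2.82 in double-positive DCs.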

How the results depend on the processing

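Of the values of the 9 genes under the alternatives, 2732 kept their direction and side of the thresholds, 50 lost a call, 12 gained one and 14 changed sign. The pathway genes named kept direction and call in all 485 values, which leave out fits whose filter removed the gene. The 14 changes of sign were all in differences that were not called. Outside the fits that left out 1 library or had the replicate block, which are given below, they were Socs1 between lymph node subsets with total counts (-0.266 for CD103+ and -0.114 for double-positive against CD11b+ DCs), and Stat6 between lymph node double-positive and CD103+ DCs with DESeq2 size factors (-0.016), the DESeq2 test (-0.0159) and without the 2 libraries that carried Xist and Ddx3y (-0.134).

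With each library left out in turn, the number of the 9 genes called stayed at 4 in CD11b+ DCs and at 5 between lymph node CD103+ and CD11b+ DCs, and was 7 to 8 in CD103+ and 8 to 9 in double-positive DCs. It was 0 to 1 between lamina propria double-positive and CD11b+ DCs, and 0 to 2 between lymph node double-positive and CD103+ DCs, where it was also 1 with DESeq2 size factors, 1 with the DESeq2 test and 0 without the 2 libraries that carried Xist and Ddx3y. Values whose sign changed in such fits ranged from -0.17 to 0.0854 (Socs1) and from -0.135 to 0.00861 (Stat6) between lamina propria double-positive and CD11b+ DCs, from -0.0109 to 0.323 for Socs1 between lymph node CD103+ and CD11b+ DCs, and from -0.0124 to 0.261 (Socs1) and -0.133 to 0.0815 (Stat6) between lymph node double-positive and CD103+ DCs. The causes were not tested.

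The main fit did not pair libraries by replicate number. The deviations of libraries with the same number correlated above 0.1 in 8 of 9 pairs within lamina propria, in 1 of 9 within lymph node and in 0 of 9 between the tissues. A library correlated best with its own number in 17 of 18 checks in each tissue, so the main fit left out a possible pairing within each tissue. With the replicate number as a block the F test of Stat6 gave an adjusted p of 0.0115, the Stat6 difference between lymph node double-positive and CD103+ DCs was -0.00861 (-0.0111 with lymph node libraries alone), and no other call changed. Depth limits Cish most, with 24 counts in its lowest library. The strict filter on low counts left 9 of the 14 called ligands.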
